A study of Mus musculus with 9 samples.

Results

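The genes described here encode the main parts of the basement membrane and the fibronectin matrix: the collagen IV chains Col4a1 and Col4a2, the laminin chains Lama1, Lama5, Lamb1 and Lamc1, the nidogens Nid1 and Nid2, the collagen-binding protein Sparc, and fibronectin, Fn1. They were chosen by name, as the 10 genes whose symbol alone annotates a probe set, of 18193 genes with such a probe set. They have 22 probe sets in all, and the brightest of each gene gave the values unless another is named. All 10 reached a signal of 50 on 2 or more arrays, as did 8716 genes in all, which were the genes tested. Lama1 met that minimum only through the undifferentiated cells and through Dox- cells of D2.5 and D3.5.

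The arrays came from mouse embryonic stem (ES) cells, cells of the early embryo that grow undifferentiated in culture with leukemia inhibitory factor (LIF). There was 1 array of undifferentiated cells, kept with LIF, serum replacement and 1 µg/ml doxycycline, and 1 array of each of D0.5, D1.5, D2.5 and D3.5 of differentiation in serum medium without LIF, with 1 µg/ml doxycycline (Dox+) or without it (Dox-). Doxycycline regulates an always-active version of PKA, the cyclic AMP-dependent protein kinase, and the question is how gene expression during differentiation differs with that kinase. The sources used here do not say which of the media switches the kinase on, so differences are given as Dox- against Dox+ only. Every array's cells, the undifferentiated ones included, had been kept in doxycycline, so no array shows cells that never met the drug. The sources used here give neither the promoter that drives the kinase nor the number of clones or cultures behind an array, and no group has a replicate array.

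Basement membranes are thin sheets that epithelia and other cell layers rest on. Laminin trimers, made of an alpha, a beta and a gamma chain, assemble at the cell surface, collagen IV trimers form a second network, and nidogens bind laminin and collagen IV to each other. Fibronectin is a dimer that cells assemble into fibrils through integrins, and in the gastrulating embryo it lies between the germ layers, where mesoderm migrates. The early mouse embryo makes collagen IV and laminin from the blastocyst on, and the parietal endoderm, an extraembryonic layer, secretes large amounts of both for Reichert's membrane.

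Signals were scaled by the depositors to a trimmed mean of 100 on each array, and the share of genes reaching 50 ranged from 41.6% to 44.2%. RNA integrity, read from the Actb 3'/5' ratio, ranged from 1.60 to 1.98. The D3.5 Dox- array had the highest of those shares, 44.2%, and a ratio of 1.63, against 43.4% and 1.94 for D3.5 Dox+. Any bearing of this on the D3.5 differences was not tested. Prkaca, the catalytic subunit of the kinase, read 390.2 to 618 over the 9 arrays, but its probes may not detect an introduced form, so it does not check the labels. Of 8 markers of undifferentiated ES cells, 7 had a signal of at least 50 in the cells so labelled.

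Both collagen IV chains were higher in Dox- than in Dox+ cells from D1.5 on. COL4A1 and COL4A2 proteins form the trimer found in nearly all basement membranes, and their genes lie head to head on chromosome 8. The RefSeq promoter windows of GRCm38.p6, each 250 bases before to 50 after the start, are shown because they overlap, so that a part of the sequence belongs to both genes. The start sites are 21 bases apart. Col4a1 (chr8:11312777-11313076, minus strand) and Col4a2 (chr8:11312555-11312854, plus strand) share 78 bases, from 11312777 to 11312854, printed in capitals, and each capital stretch is the reverse complement of the other.
Col4a1: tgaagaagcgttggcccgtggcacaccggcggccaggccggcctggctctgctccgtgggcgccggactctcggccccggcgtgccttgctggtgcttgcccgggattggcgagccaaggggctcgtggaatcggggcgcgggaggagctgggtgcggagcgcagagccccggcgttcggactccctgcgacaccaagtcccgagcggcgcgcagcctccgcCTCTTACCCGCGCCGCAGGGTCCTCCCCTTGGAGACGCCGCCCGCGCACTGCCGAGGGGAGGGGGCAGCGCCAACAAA
Col4a2: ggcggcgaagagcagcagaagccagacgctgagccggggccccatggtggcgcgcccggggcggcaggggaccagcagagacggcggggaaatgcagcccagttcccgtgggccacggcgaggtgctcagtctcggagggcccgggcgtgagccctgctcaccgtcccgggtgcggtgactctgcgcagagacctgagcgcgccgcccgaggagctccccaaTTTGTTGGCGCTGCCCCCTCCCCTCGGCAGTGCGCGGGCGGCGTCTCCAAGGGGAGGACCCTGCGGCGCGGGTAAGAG

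Col4a1 read 215 in undifferentiated cells, 129, 116, 173 and 225 at D0.5, D1.5, D2.5 and D3.5 of Dox+, and 121, 351, 545 and 800.5 at the same days of Dox-. The lowest of the Dox- values from D1.5 on lay above every Dox+ value. The ratio of the signals themselves, Dox- to Dox+, was 0.940 on D0.5 and 3.03, 3.16 and 3.56 on the later days. Col4a2 read 56.6 in undifferentiated cells, 36.0, 40.2, 39.8 and 63.9 in Dox+, and 24.3, 72.6, 111 and 182 in Dox-. It was thus lower in Dox- on D0.5 and higher on each later day, with a signal ratio of 2.84 on D3.5. Over the 9 arrays the chains had the highest correlation of any pair among the 10 genes (r = 0.97), across arrays that share a time course and, in 8 of 9 cases, a medium with others.

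The laminin chains had different courses. Lama1, the alpha chain of the laminin of the earliest embryo, was low in all differentiating Dox+ cells and higher on each later day of Dox-. It read 136 in undifferentiated cells, 18.1, 12.5, 11.5 and 10.1 in Dox+, and 16.5, 31.1, 65.6 and 80.3 in Dox-. The groups overlapped on D0.5 only, and the Dox- value on D3.5 was below that of undifferentiated cells. The Dox+ values are near background, so the log2 difference of 1.88 on D3.5 is given in place of a ratio. These are bulk RNA samples, in which fewer cells of a type and less RNA per cell cannot be told apart.

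Lama5, the alpha chain of most later epithelial basement membranes, went the other way on the last 2 days. It read 53.9 in undifferentiated cells, 58.3, 101, 139.9 and 167 in Dox+, and 66.2, 119, 105 and 97.5 in Dox-. The Dox+ values were higher on each later day, whereas the Dox- values were highest on D1.5, and on the log2(signal + 16) scale, used for every log2 difference and every count of 2-fold differences, the media differed by -0.37 on D2.5 and -0.69 on D3.5. Its RefSeq promoter window (chr2:180225810-180226109, minus strand) is shown because it alone of the 6 windows in the table (Col4a1, Col4a2, Lama5, Lamb1, Nid1 and Sparc) holds TGACG, the core of the site that the cyclic AMP-responsive factor CREB binds, in capitals here.
Lama5: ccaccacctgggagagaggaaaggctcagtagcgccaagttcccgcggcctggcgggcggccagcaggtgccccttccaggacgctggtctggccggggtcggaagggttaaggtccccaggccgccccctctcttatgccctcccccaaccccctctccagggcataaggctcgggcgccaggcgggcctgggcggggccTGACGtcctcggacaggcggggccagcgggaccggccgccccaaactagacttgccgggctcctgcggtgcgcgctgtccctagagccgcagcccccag

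The full cyclic AMP response element, TGACGTCA, which holds that core, was in 0 of the 6 windows and in 1.79% of all 32851 RefSeq promoter windows of that length. The core TGACG itself, on either strand, was in 20.8% of all windows. The GC box, GGGCGG, on either strand, was in 5 of the 6 windows, which were all but that of Sparc, and in 35.7% of all. The only GC box of Col4a1 lies in the 78 bases shared with Col4a2, so the same site counts in both windows. The CCAAT box, on either strand, was in 4 of the 6 and in 37.4% of all. The motif AGATAA of GATA factors was in 0 of the 6 and in 11.2% of all. A match is a description of the letters only.

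Lamb1, the beta chain of the early laminins, was bright everywhere and higher on later days in both media. It read 374 in undifferentiated cells, 354, 649, 723 and 860.4 in Dox+, and 367, 676, 912 and 1048 in Dox-. Lamc1, the gamma chain that pairs with it, read 146 in undifferentiated cells, 81.3, 68.0, 54.6 and 58.3 in Dox+, and 70.1, 50.0, 47.8 and 77.4 in Dox-. All 8 differentiating arrays lay below the undifferentiated one for Lamc1, and the media overlapped.

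Nid1, which links laminin to collagen IV, was lower on each later day of Dox+, and in Dox- was higher on D3.5 than on D2.5. It read 652 in undifferentiated cells, 248, 88.4, 40.6 and 33.0 in Dox+, and 260.0, 115, 105 and 232 in Dox-. The media were close on D0.5 and differed by a log2 value of 2.34 on D3.5, where the Dox- value was near those of D0.5. Nid2, its paralog, read 304 in undifferentiated cells, 428, 266, 155 and 131 in Dox+, and 442, 119, 162 and 218 in Dox-. Nid2 was lower in Dox- on D1.5 by a log2 difference of -1.07 and higher on D3.5 by 0.67, so its media difference changed sign, with 1 array behind each value.

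Sparc, a secreted protein that binds collagens and is abundant in parietal endoderm, was higher in Dox- on D1.5, D2.5 and D3.5. It read 692 in undifferentiated cells, 482, 274, 429 and 607 in Dox+, and 478, 528, 617 and 1313 in Dox-. Only the last Dox- array, D3.5, lay above the undifferentiated cells, by a factor short of 2-fold. Fn1 had the largest difference between media among the 10 genes on D2.5, at a log2 value of 3.32, while on D3.5 Nid1 differed slightly more (2.34 against 2.25). It read 888 in undifferentiated cells, 983, 638, 302 and 859.7 in Dox+, and 959, 589, 3153 and 4145 in Dox-. On D0.5 and D1.5 the media differed by -0.03 and -0.11, and on D2.5 and D3.5 the Dox- signal was 10.5 and 4.82 times the Dox+ signal. Between D1.5 and D2.5 Fn1 moved by -1.04 in Dox+ and by 2.39 in Dox-, as log2 differences of single arrays.

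**Figure D1:**
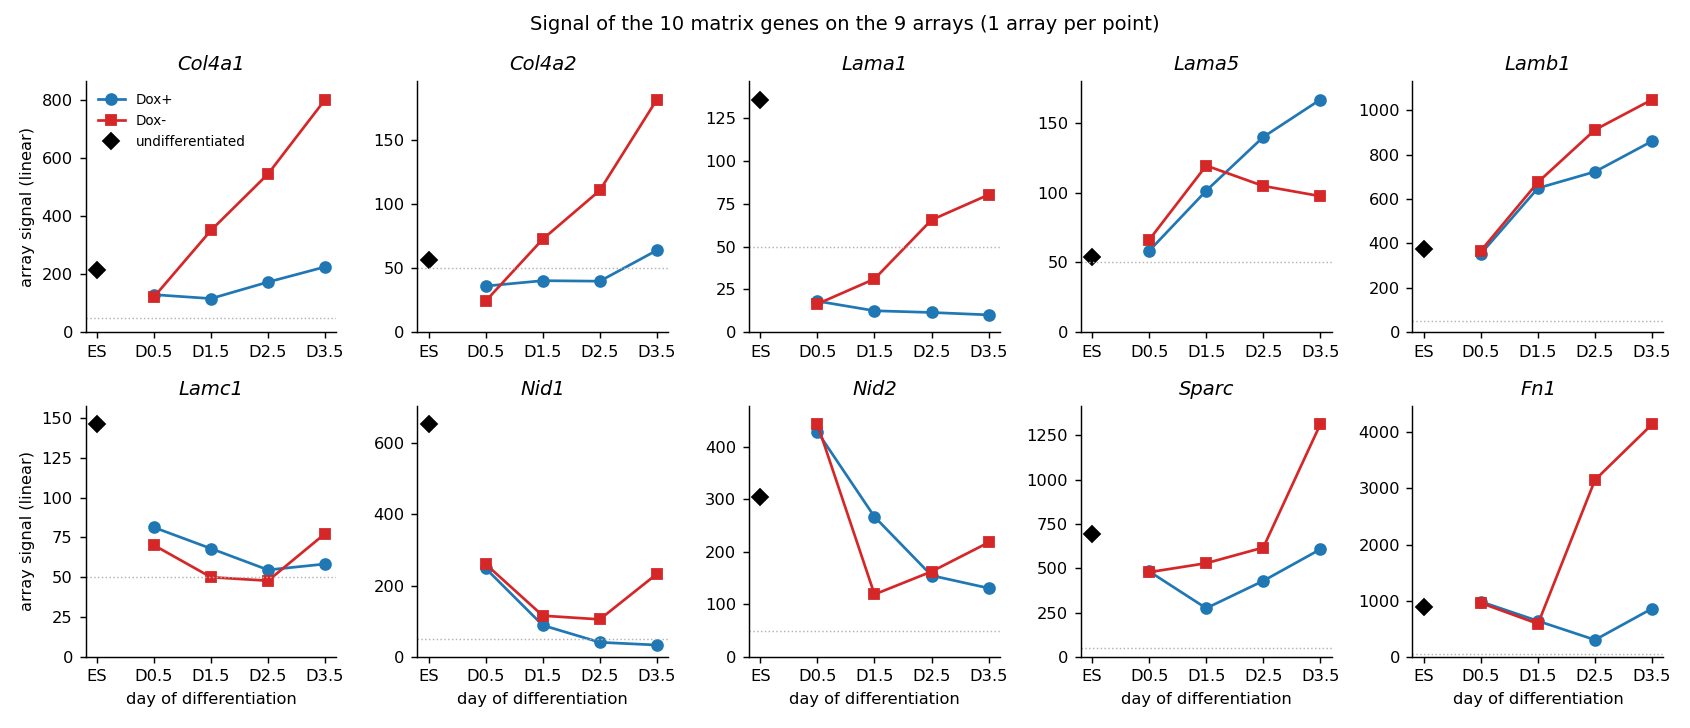
Scaled array signal (linear axis from 0, arbitrary units) of the 10 genes by day of differentiation, 1 panel per gene, with 1 line for Dox+ and 1 for Dox- and a separate marker for undifferentiated cells. Each point is 1 array, with no error bar; the lines of Fn1 stay together to D1.5 and part on D2.5, where they read 3153 and 302.

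Single days gave no test, since each group was 1 array, and a difference of at least 2-fold was counted instead. On D0.5, 0 of the 10 lay at least 2-fold higher in Dox-, against 0.0918% of the genes tested, and 0 lower, against 0.0229%. On D1.5, Col4a1 was higher (1.33% of genes tested) and Nid2 lower (1.42%). On D2.5, 5 genes were higher, Col4a1, Col4a2, Lama1, Nid1 and Fn1 (3.41%), and 0 lower (4.45%). On D3.5, Sparc made 6 higher (4.13%), with 0 lower (4.8%). Lama1 could count only as higher, and without it the counts were 4 of 9 on D2.5 and 5 of 9 on D3.5. The median difference of the 10 genes was -0.024, 0.27, 0.80 and 1.20 from D0.5 to D3.5, while that of all genes tested stayed between -0.040 and 0.0090.

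**Figure D2:**
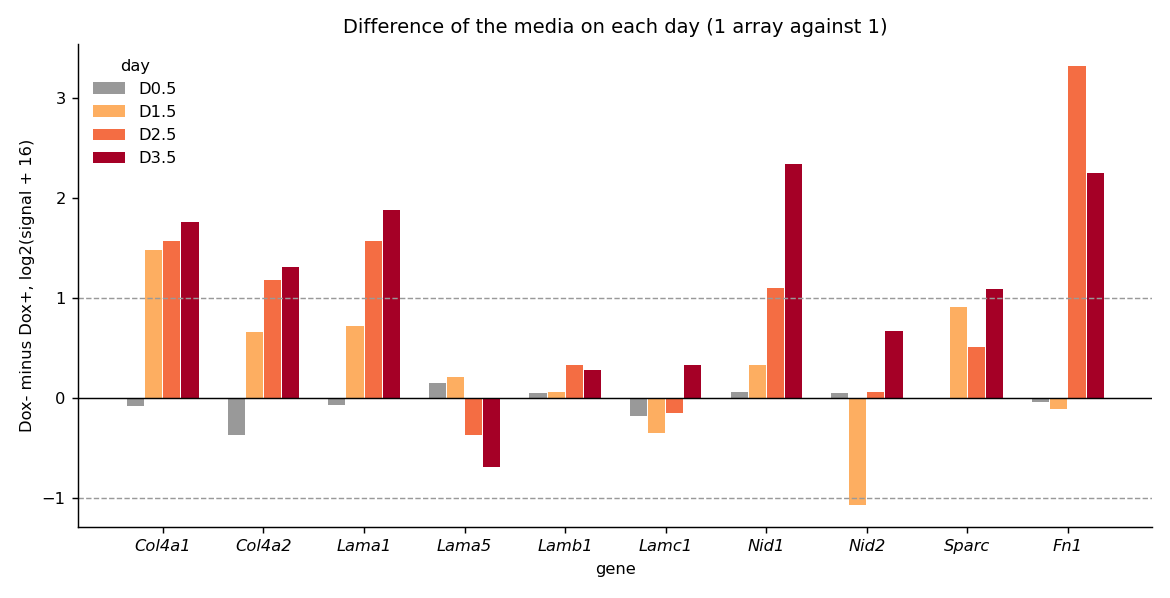
Difference Dox- minus Dox+ in log2(signal + 16) for the 10 genes, 1 bar per day from D0.5 to D3.5, each from 1 array against 1, with dashed lines at a 2-fold difference. The Col4a1 bars are 1.48, 1.57 and 1.76 from D1.5 on, and the Nid2 bar on D1.5 is the only one past the lower dashed line, at -1.07.

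With the 4 days taken as repeats of the comparison of media, none of the 10 genes passed. Limma with day as a block called 0 of 8716 genes (0.0%) at an adjusted p under 0.05, and 0 of the 10. The largest fitted differences were 1.36 ± 0.60 (SE, 4 days; limma adjusted p = 0.423) for Fn1, 1.18 ± 0.31 (0.416) for Col4a1 and 1.03 ± 0.36 (0.416) for Lama1. At an unadjusted p under 0.05, 4 of the 10 were higher in Dox-, namely Col4a1, Lama1, Nid1 and Sparc, against 4.3% of all genes tested (3 of 9 without Lama1). Lama5 (-0.18 ± 0.18), Lamb1 (0.18 ± 0.09), Lamc1 (-0.09 ± 0.16) and Nid2 (-0.07 ± 0.27) lay near 0, and Lamc1 and Nid2 were positive without the D1.5 pair, at 0.0025 and 0.26.

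With D2.5 and D3.5 fitted as sharing 1 media difference, a span chosen with earlier results of these data known, Fn1, Lama1, Nid1 and Col4a2 passed, all higher in Dox-. This fit holds the media difference of D0.5 and D1.5 at 0 and counts what those pairs differ by as error, with 3 residual degrees of freedom, so a gene that already differed on D1.5, as Col4a1 did by 1.48, gets a larger standard error. Limma called 7.18% of all genes, 2.83% higher and 4.35% lower, and of the 10 genes 4 higher and 0 lower. Fn1 was higher by 2.78 ± 0.22 (SE; limma adjusted p = 0.00189), Lama1 by 1.73 ± 0.30 (0.0199), Nid1 by 1.72 ± 0.28 (0.0167) and Col4a2 by 1.25 ± 0.26 (0.0342). Since Lama1 met the signal minimum only where it was high, the count without it is 3 of 9. Col4a1 gave 1.67 ± 0.41 and missed the threshold (0.058), as did Sparc at 0.80 ± 0.28 (0.143), Lama5 at -0.53 ± 0.16 (0.106) and Lamb1 at 0.30 ± 0.10 (0.133). Lamc1 was at 0.09 ± 0.21 (0.822) and Nid2 at 0.37 ± 0.33 (0.537). The median of the 10 was 1.02, and that of all genes tested 0.0057.

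Without the D0.5 pair, 1 of the 4 calls remained, Fn1 (limma adjusted p = 0.0148), while Lama1 (0.0652), Nid1 (0.0612) and Col4a2 (0.0797) missed the threshold. Without D1.5, Col4a1 (0.00248) and Sparc (0.0318) passed as well, so that 6 of the 10 were called. Without D2.5 or without D3.5 the difference is that of 1 array against 1, and its p takes the spread from the other days on the assumption that the lone pair varies like them. In those fits Fn1 and Nid1 passed without D2.5, and Fn1 without D3.5, which is no replicate check of either day. Probe sets of one gene agreed in sign for Fn1, whose second set read 717.6 and 471.7 in Dox- against 49.5 and 199 in Dox+ on D2.5 and D3.5 (2.33 ± 0.45; 0.0282). The dimmer set of Col4a1 gave 1.02 ± 0.34 (0.122), and the dim sets of Nid1, with at most 38.3, gave 0.53 and 0.45 and did not pass. Lama1, Col4a2 and Nid2 had 1 probe set each.

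**Figure D3:**
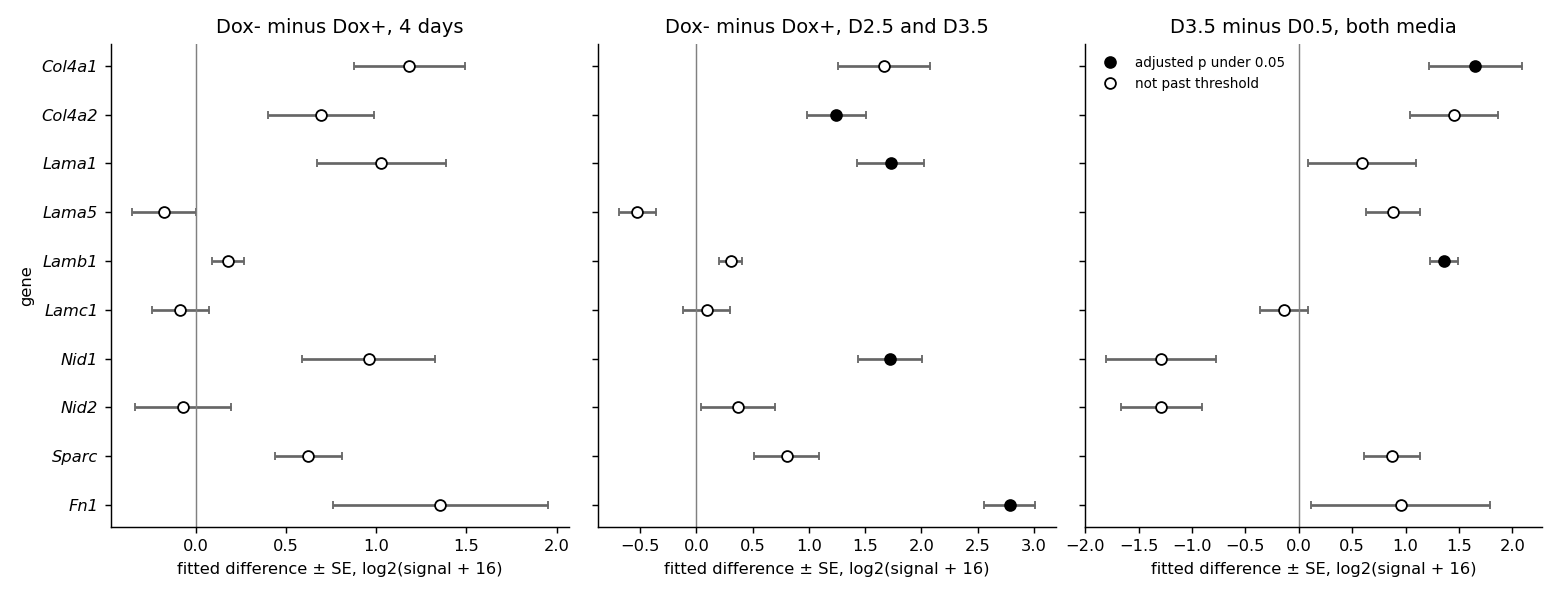
Fitted log2(signal + 16) differences with their standard errors for the 10 genes, in panels for Dox- minus Dox+ over 4 days, the same over D2.5 and D3.5, and D3.5 minus D0.5 over both media (8 arrays each). Filled points passed a limma adjusted p of 0.05: none in the first panel, Col4a2, Lama1, Nid1 and Fn1 in the second, and Col4a1 and Lamb1 in the third.

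Whether the difference between media changed steadily with day was tested by letting the media difference have a slope over day number. Limma called 0 of 8716 genes (0.0%), and 5 of the 10 had an unadjusted p under 0.05, all with a positive slope of Dox- minus Dox+, against 4.28% of all genes in that direction (4 of 9 without Lama1). The slopes per day were 1.03 ± 0.42 (SE) for Fn1, 0.76 ± 0.30 for Nid1, 0.67 ± 0.17 for Lama1, 0.56 ± 0.15 for Col4a1 and 0.55 ± 0.14 for Col4a2, with limma adjusted p between 0.407 and 0.590. Lama5 had a slope of -0.31 ± 0.15 (0.630).

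Over time, with the media as repeats, Lamb1 and Col4a1 rose between D0.5 and D3.5. Limma gave 1.36 ± 0.13 (SE, 2 media; adjusted p = 0.0038) for Lamb1 and 1.65 ± 0.43 (0.0424) for Col4a1. These 2 of 10 stand beside 22.0% of all genes called, 11.8% higher and 10.2% lower. Lamb1 had already risen by 0.85 ± 0.13 between D0.5 and D1.5 (0.0337), where 3.05% of genes were called. Collagen IV chain Col4a2 (1.46 ± 0.41; 0.0516), Lama5 (0.88 ± 0.25; 0.0535), Nid2 (-1.29 ± 0.38; 0.0565) and Sparc (0.88 ± 0.26; 0.0611) lay just outside the threshold. The Col4a1 call was lost with no signal filter (0.0599), with the mean of all probe sets (0.0714) and with no trend in the variance prior (0.0593). It averages unlike courses, 0.73 in Dox+ and 2.57 in Dox-, and the dimmer probe set of Col4a1 gave 0.72 ± 0.33 (limma adjusted p = 0.164). A second set of Lama5 (1.105 ± 0.31, 0.0497) and of Sparc (1.025 ± 0.26, 0.0391) passed, while their dimmest sets did not (0.463 and 0.693). Nid1 (-1.29 ± 0.52), Fn1 (0.95 ± 0.84), Lama1 (0.59 ± 0.51) and Lamc1 (-0.14 ± 0.22) had adjusted p of 0.125 to 0.689. Between D1.5 and D2.5 and between D2.5 and D3.5 limma called 0 genes (0.0% each), and at an unadjusted p under 0.05 the counts were 318 (3.65%) and 329 (3.77%), of which 0 and 1 (Sparc) were among the 10.

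Within each medium the courses differed in extent, with 1 array a point. From D0.5 to D3.5 in Dox-, the count at least 2-fold higher was 6 of the 10 (11.0% of genes tested) and 0 lower (8.2%). The 6 were Col4a1, Col4a2, Lama1, Lamb1, Sparc and Fn1. Lama1 reached the signal minimum in Dox- on D2.5 and D3.5 only, so it could count only as higher here. In Dox+, 2 were at least 2-fold higher, Lama5 and Lamb1 (8.33%), and 2 lower, Nid1 and Nid2 (5.2%).

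Against undifferentiated cells, Lama1 and Nid1 were already lower 0.5 days after the medium changed, in both media. They were the 2 of 10 genes at least 2-fold lower on both D0.5 arrays, against 1.3% of genes tested on each, and 0 were at least 2-fold higher on either (1.43% in Dox+ and 1.57% in Dox-). The log2 differences were -2.16 in Dox+ and -2.23 in Dox- for Lama1, whose signals there are near background, and -1.34 and -1.28 for Nid1. All 8 differences share the 1 undifferentiated array. On D3.5 in Dox-, 4 genes lay at least 2-fold above undifferentiated cells, Col4a1, Col4a2, Lamb1 and Fn1 (12.7%), and Nid1 was lower (8.86%). On D3.5 in Dox+, Lama5 and Lamb1 were higher (11.1%), and Lama1, Lamc1, Nid1 and Nid2 lower (6.34%), with Nid1 at a log2 difference of -3.77. There too Lama1 could count only as lower, since it stayed under 50 on every Dox+ array.

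Extraembryonic endoderm makes much of this matrix, and its markers moved too. The summed signal of 12 markers of primitive and parietal endoderm was 429 in undifferentiated cells, 162 to 1336 in Dox+ (1 to 4 of them at 50 or more) and 147 to 3574 in Dox- (0 to 8). Most of the highest sums came from few genes. Fst read 2098 and Pdgfra 729 in the highest Dox- sum, that of D2.5, and Fst read 973 in the highest Dox+ sum, that of D3.5. Of its defining members, Gata4, Hnf4a and Thbd stayed under 50 on every array, with highest signals of 30.4, 20.1 and 18.8. Others were higher in Dox- on the days on which the matrix genes were. At least 2-fold higher on both D2.5 and D3.5 were 4 of the 12, Gata6, Pdgfra, Sox7 and Sox17. Of the 8 tested, 6 were at least 2-fold higher on each of these days, against 3.41% and 4.13% of all genes tested. On D3.5, 2 of the 8 were at least 2-fold lower (4.8%). These were Foxa2, at 11.5 in Dox- against 78.6 in Dox+, and Fst, at 289 against 973. Sox7 and Sox17 reached 50 only in Dox-, which fixed their sign. Gata6 read 280.4 and 335 in Dox- against 5.6 and 58.6 in Dox+ on D2.5 and D3.5 (3.01 ± 0.44, limma adjusted p = 0.0116). Pdgfra, which mesoderm uses too, read 729 and 661 against 4.0 and 124 (3.75 ± 0.58; 0.0137). Between undifferentiated cells and D0.5, where Lama1 and Nid1 were lower, 2 of the 8 tested markers were at least 2-fold lower in each medium. The share of all genes tested was 1.3% in each. At least 2-fold higher were 0 markers, against 1.43% of genes in Dox+ and 1.57% in Dox-. The lower ones were Srgn and Pdgfra in Dox+, and Srgn and Sox17 in Dox-. Srgn went from 212 to 55.3 in Dox+ and 34.3 in Dox-. Pdgfra went from 36.3 to 6.1 and 11.6, and Sox17 from 27.1 to 6.1 and 2.3, all under 50. Gata6, also under 50, went from 45.0 to 15.3 and 24.0, short of 2-fold on the log2(signal + 16) scale. Dab2 went from 35.0 to 31.6 in both media. Gata4 and Hnf4a were higher in Dox+ only, and Fst and Thbd in Dox- only, all under 50 as well. The part of these cells in the results on the 10 genes was not tested.

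Markers of other cell types gave sums of 95.7 to 182 in Dox+ and 96.2 to 220 in Dox- for visceral endoderm (8 of 9 markers with a probe set). Afp and Ttr, its defining markers, stayed under 50, as did Apoa1, Apob and Ihh. Amn, Cubn and Rbp4 passed 50 on some arrays, with highest signals of 59.7, 57.4 and 69.6. Fibroblast markers (8) summed to 50.8 to 209 and 40.6 to 387, with Lum and Postn under 50 throughout. Col1a1 and Col1a2 read 157 and 137 on D3.5 in Dox-, against 7.3 and 47.7 in Dox+, and Dcn reached 95.9 in Dox+. Endothelial markers (7) summed to 34.8 to 103 in Dox+ and 95.9 to 593 in Dox-. Most of the highest sum, that of D3.5 in Dox-, came from Kdr, at 483. Pecam1, Cdh5, Tie1 and Emcn stayed under 50 on every array, with highest signals of 22.2, 32.9, 4.8 and 11.2. Tek and Esam reached 62.8 and 64.4, both in Dox-. Nascent mesoderm markers (8) summed to 77.5 to 2211 and 103 to 6388. The mesoderm sums were 6388 in Dox- against 151.9 in Dox+ on D2.5, and 2440 against 2211 on D3.5. On D2.5 each of the 6 mesoderm markers tested was higher by 2-fold or more (median log2 5.1), against 3.41% of all genes tested. On D3.5, 1 was higher, Mesp1 at 1.40 (4.13% of genes tested), and 1 lower, Fgf8 at -1.06 (4.8%), with a median of 0.38. In the fit over both days limma called Mesp1 (3.48 ± 0.80, adjusted p = 0.0465) and Kdr (3.88 ± 0.58, 0.012) higher. Kdr, the 1 endothelial marker tested, reached 50 only in Dox-, which fixed its sign. No marker was listed at 0. The part of these cell types in the results was not tested either.

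Among other matrix genes, those of the interstitial matrix had the most calls on D2.5 and D3.5, and the remaining basement membrane genes had few. Their counts stand beside the 2.83% of all genes called higher and 4.35% lower there, and a median of 0.0057. Of 25 other basement membrane genes listed, 24 had a probe set and 6 were tested, and limma called 0 higher and 1 lower in Dox-, Col18a1, the core of a heparan sulfate proteoglycan (-0.88 ± 0.15; adjusted p = 0.0167), with a median of -0.21. Lama4 and Col4a5, too dim on the other arrays to be tested, read 128 and 97.4 at D3.5 in Dox-, and at most 10.8 and 30.7 elsewhere. Of 20 genes listed for collagen folding, secretion and crosslinking, 12 were tested, and 1 was higher and 0 lower (median 0.37): Serpinh1, the collagen chaperone HSP47, at 1.38 ± 0.22 (0.0139), with signals of 609 against 162 on D3.5. Of 26 matrix receptors listed, 15 were tested: Cd44, a hyaluronan receptor, was higher (1.5 ± 0.32; 0.0373) and Ddr1, a collagen receptor kinase, lower (-1.27 ± 0.18; 0.00943), with a median of 0.33.

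Of 27 interstitial matrix genes listed, 10 were tested, and 6 were called higher and 1 lower, with a median of 1.05. The hyaluronan-binding proteoglycan Vcan was higher by 2.19 ± 0.28 (limma adjusted p = 0.00772), with signals of 275 and 656 in Dox- on D2.5 and D3.5 against 82.7 and 79.8 in Dox+. The fibulin Fbln2 (2.39 ± 0.52; 0.0406), the link protein Hapln1 (2.37 ± 0.50; 0.0373) and the fibrillin Fbn2 (1.67 ± 0.23; 0.00943) were also higher. Decorin, Dcn, a small proteoglycan that binds collagen fibrils, was lower (-2.04 ± 0.34; 0.0176). Fbln2, Hapln1 and Col1a2 reached 50 only in Dox-, and Dcn only in Dox+, so the sign of these 4 of the 7 calls was fixed by the signal minimum, and neither the count nor the median supports a direction of the list. Dcn and Col1a2 are also on the fibroblast list. Of 19 proteases and inhibitors listed, 9 were tested and 0 called, with a median of 0.78, and the largest differences on D3.5 were those of Reck (1.85), Htra1 (1.82) and Mmp2 (1.33).

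**Figure D4:**
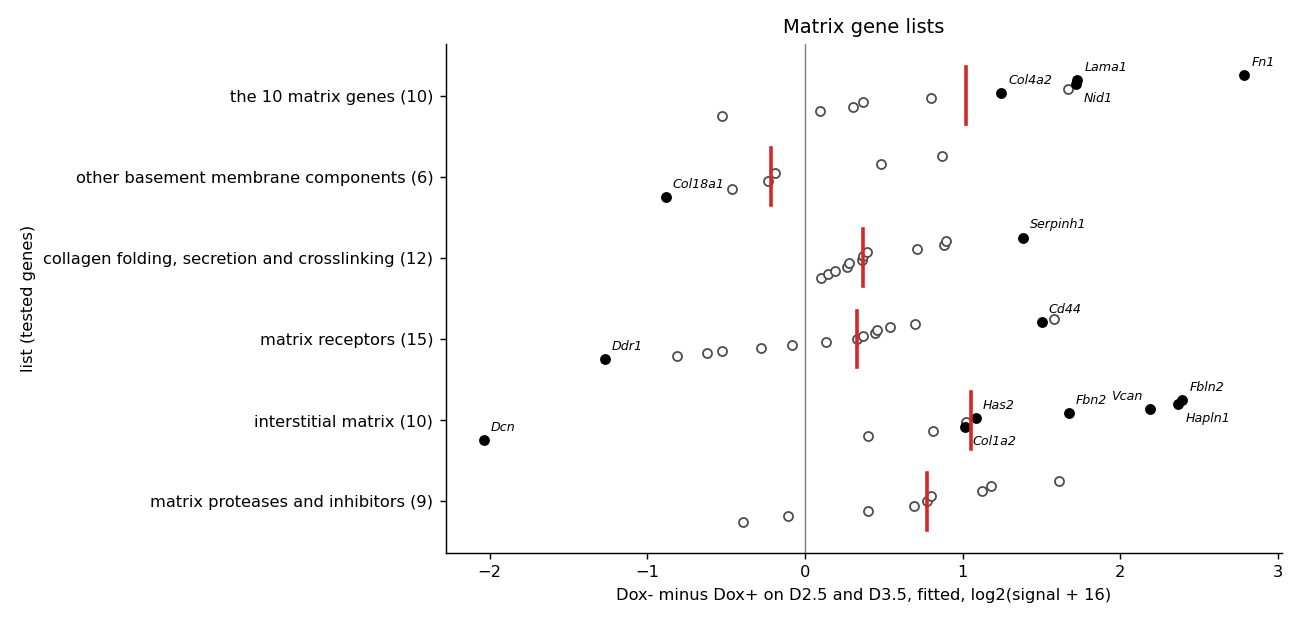
Fitted Dox- minus Dox+ difference on D2.5 and D3.5 in log2(signal + 16) for the tested genes of each matrix list, 1 point per gene and a red bar at the list's median. Filled, named points passed a limma adjusted p of 0.05; the medians run from -0.21 for other basement membrane genes to 1.05 for the interstitial matrix.

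Between D0.5 and D3.5 in both media, calls in these lists were spread over all 5, with medians of 0.56 (other basement membrane), 0.50 (folding), 0.87 (receptors), 1.47 (interstitial matrix) and 0.50 (proteases and inhibitors), against 0.017 over all genes tested, of which 11.8% were called higher and 10.2% lower. Of the genes called higher, Frem2, Fras1, P3h2, Cd44, Itgb8, Sdc2, Has2, Col1a2, Col5a1, Col5a2, Mmp2 and Timp2 were under 50 on both D0.5 arrays and met the signal minimum only on later ones, which fixed their sign. Frem2 and Fras1, parts of a basement membrane adhesion complex, rose by 2.92 ± 0.44 (SE; limma adjusted p = 0.00954) and 1.91 ± 0.36 (0.0173), and Col18a1 fell by 1.37 (0.0147), for 2 higher and 1 lower of 6. For folding genes it was 5 higher and 0 lower of 12, among them P3h2 (1.70), Pxdn (1.63) and Serpinh1 (1.46). Receptors gave 7 higher and 1 lower of 15, with Cd44 at 3.46, Itgb8 at 2.24 and the laminin receptor chain Itga6 at -1.03. The interstitial matrix gave 4 and 1 of 10, with Has2, a hyaluronan synthase, at 2.98 and Tgfbi at -2.69, and proteases and inhibitors 2 and 1 of 9, with Timp2 at 1.74, Mmp2 at 1.70 and Timp1 at -0.90.

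Across the 9 arrays, and as a description only, the log2 profile of Col4a1 was most like those of 9530068E07Rik (Pearson r = 0.978), Creb3l2 (0.975), Rapgef6 (0.969), Tnfaip1 (0.969) and Ube2g2 (0.966). That of Fn1 was most like Galnt1 (0.974), Ttbk2 (0.955), Kitl (0.955), Ext1 (0.948) and St6galnac4 (0.948). The mean standardized profile of the 10 genes was most like Cited2 (0.972), Bicd2 (0.969), Dolk (0.966), Ptpmt1 (0.963) and Rps27 (0.959). Among the 10 themselves, the correlation ran from 0.971 for Col4a1 and Col4a2 to -0.925 for Nid1 and Lama5. The arrays share a time course and the media, and these genes were picked as the highest among all genes tested.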

How the data were processed

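Values were the deposited intensity signals of 9 one-color mouse arrays of 45101 probe sets. The authors made these intensity values with GCOS, per the submitters' processing notes (version not stated), and scaled each array to a trimmed mean of 100, which holds in the file with 2% trimmed from each end. Of the probe sets, 34945 had 1 gene symbol, 932 several and 9224 none, by GEO's platform annotation, which can be old. Of the former, 34741 matched RefSeq by gene ID.

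From the deposited signals, log2(signal + 16) was computed for the brightest probe set of each of 18193 genes, without 64 control sets. The pseudocount of 16 understates differences of dim genes. The 8716 genes reaching a signal of 50 on 2 arrays were fitted with limma 3.58.1 (R 4.3.3; lmFit, eBayes with trend, Benjamini-Hochberg over all of them). Each group had 1 array, so days served as repeats of the media comparison and media as repeats of the days, and p-values measure the spread between those. The number of arrays limits the precision, and scan batches were not known. The fits were tested on simulated data: estimates were unbiased, but part of the simulated 4-fold changes was not called, so a missed threshold does not show that a gene did not differ.

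The members, gene lists, markers and tests were chosen with earlier results of these data known. Named were all 10 members and the 5 genes with the highest r to Col4a1, Fn1 and the members' mean. From each matrix list the called genes were named, up to 5 with the largest fitted difference, otherwise the 3 furthest apart on D3.5. Genes of the marker lists were not named by this rule, and Lama4 and Col4a5 were named after their values were seen. Promoter sequences are RefSeq's (GRCm38.p6). Lama1, Lamc1, Nid2 and Fn1 had no entry. Alternatives were pseudocounts of 1 and 64, no signal filter, quantile normalization, the mean of all probe sets, no trend, no day block, each day left out and, added after seeing the data, the members' other probe sets and fits without D2.5 or D3.5.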

Additional observations from a re-analysis of the deposited data

Results flagged for a closer look

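Nid2 differed between the media in opposite directions on different days: Dox- minus Dox+ was -1.07 on D1.5 and 0.67 on D3.5, as log2 differences with 1 array on each side. The difference between these days was not tested. Fn1 moved in opposite directions from D1.5 to D2.5, by -1.04 in Dox+ and by 2.39 in Dox-, each from 1 array to 1, and this difference was not tested either.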

How the results depend on the processing

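The media fit over 4 days called 0 genes under every alternative run, and the 10 genes kept their sign there except that without each day in turn Lamc1 ranged from -0.22 to 0.0025 and Nid2 from -0.32 to 0.26, positive without D1.5. On D2.5 and D3.5, leaving out each day in turn gave 1 to 6 of the 10 genes called (4 with all days) and 228 to 791 of all genes (626), where leaving out D2.5 or D3.5 leaves 1 pair to carry the difference. Lamc1 turned negative there with the mean of all probe sets (-0.011), without D3.5 (-0.15, against 0.33 without D2.5) and with its other probe set (-0.11). Nid1 missed the threshold with the mean of all probe sets, as did Col4a2 with no signal filter. For D3.5 against D0.5, 1 of the 10 was called instead of 2 without the trend, with the mean of all probe sets and with no signal filter, and 4 with a pseudocount of 1. For D1.5 against D0.5 it was 0 with the mean of all probe sets. On single days, the genes at least 2-fold higher on D1.5 numbered 2 with a pseudocount of 1, those lower on D1.5 numbered 0 and those higher on D2.5 numbered 2 with a pseudocount of 64. The causes were not tested. Of 658 values of single genes under alternatives, 603 kept direction and side of the threshold or moved little. The media fits pair the arrays by day; without that block the 4-day fit also called 0 genes. Dim genes such as Lama1 are limited by signal near background.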
